A study of Mus musculus with 2 samples.

Results

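The phase II conjugation enzymes described here are the UDP-glucuronosyltransferases (UGT), the cytosolic sulfotransferases (SULT) and the cytosolic and kappa-class glutathione transferases (GST). They were chosen by a rule on gene symbols, with earlier results of these data known. It took every mouse gene whose official symbol begins with Ugt1, Ugt2, Ugt3 or Sult, or with Gst followed by a class letter and a number. The rule gave 66 genes, 21 UGT, 22 SULT and 23 GST. Of these, 56 had at least 1 probe with a matched transcript, among 20280 genes with a named probe, and they held 76 probes in all. Of the 66 genes, 41 were measured on both arrays after spots with an outlier flag were left out (10 UGT, 13 SULT and 18 GST). A further 13 members had only probes with an outlier flag and are described apart from the counts, 2 members (Sult1c1 and Gstt4) were not well above background on either array, and 10 had no probe matched to one of their transcripts (Ugt1a1, Ugt1a2, Ugt1a5, Ugt1a7c, Ugt1a8, Ugt1a9, Ugt2a2, Sult2a5 and the pseudogenes Sult2a-ps2 and Gstm2-ps1).

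The study measured RNA of whole liver from male C57BL/6 mice with liver fibrosis on single-colour Agilent microarrays. The TSG-6 group received recombinant TSG-6 (Rh_TSG-6 in the labels), a secreted hyaluronan-binding protein with anti-inflammatory activity, by vein, and the PBS group received phosphate-buffered saline, both sampled 2 weeks later. Each group is 1 array that carries the mixed RNA of 3 mice, so there is no spread between animals, no test could be made, and each difference below is the difference of 2 pools. The agent that caused the fibrosis, the dose of TSG-6 and the ages of the mice are not given in the sources used here, and there was no array of healthy liver among the data analysed.

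Phase II enzymes make fat-soluble molecules ready for excretion by attaching a polar group. UGT enzymes sit in the endoplasmic reticulum membrane and transfer a sugar, usually glucuronic acid, to bilirubin, steroids, bile acids and drugs. SULT enzymes work in the cytosol and transfer a sulfonate group from the donor PAPS to steroids, bile acids, catecholamines and phenols. GST enzymes join glutathione to reactive electrophiles and lipid peroxidation products. Most are abundant in hepatocytes, and in mouse liver several members, among them the Sult2a and Sult3a genes, are known to be made at different levels in females and males.

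Values are given as the scanner software's processed signal, an intensity on a linear scale, and as a level, the log2 of that signal minus the array's 75th percentile. The 75th percentile was a signal of 2476 on the TSG-6 array and 3158 on the PBS array, so equal signals on both arrays correspond to a log2 difference of 0.35. All differences are TSG-6 minus PBS on the log2 scale. Over the 15147 genes measured on both arrays the median difference was 0.08, and the interquartile range ran from -0.23 to 0.33. A pooled SD of 0.13 over 300 probes printed in several spots gives the scatter within an array only. Each probe is compared with itself across the arrays and never with another probe.

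**Figure D1:**
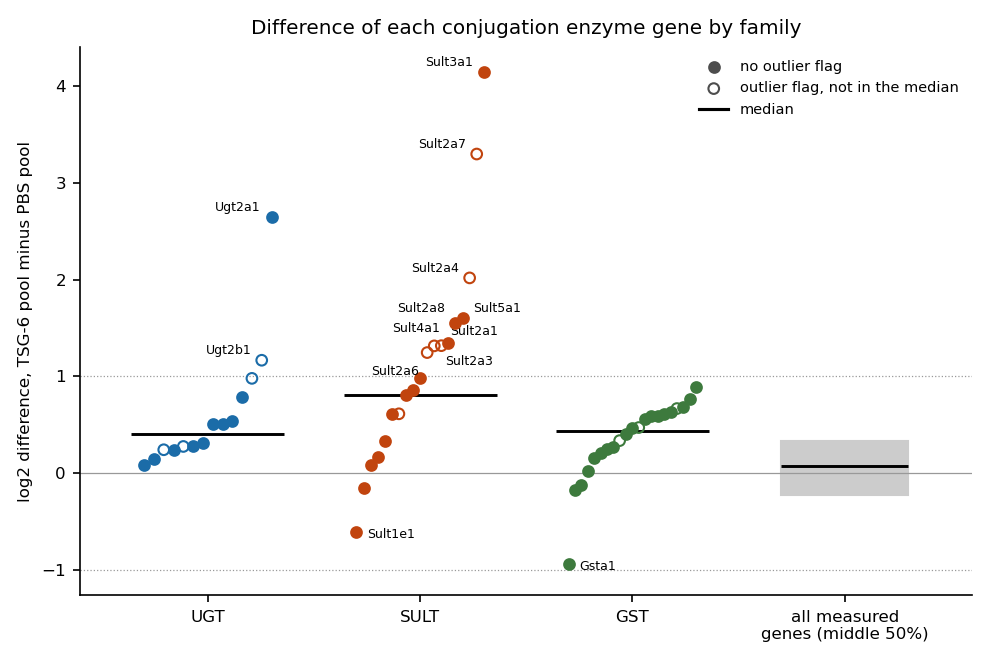
Log2 difference (TSG-6 minus PBS) of each conjugation enzyme gene in the 3 families. Each point is 1 gene; filled points are measured members, open points are members with only flagged spots; bars mark the family medians of the measured members, 0.41 for UGT, 0.80 for SULT and 0.44 for GST. The grey box is the interquartile range of all measured genes, and dotted lines mark 2-fold. The measured SULT points spread from -0.60 to 4.14 and the measured GST points from -0.93 to 0.89.

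Most measured members were higher in the TSG-6 pool than in the PBS pool, and the SULT family held most of the large differences. Of the 41 measured members, 36 had a difference above 0 and 5 below, with a median of 0.50. Of all 15147 measured genes, 8705 lay above 0 and 6442 below. At least 2-fold higher were 5 members, against 2.94% of all 15147 measured genes, and at least 2-fold lower were 0 members, against 4.29% of all genes. With 41 members a count of 0 cannot be told from 4.29%. The 5 were Sult3a1, Ugt2a1, Sult5a1, Sult2a8 and Sult4a1, of which 4 are SULT genes and 1 is a UGT gene. Many members are bright, and among the 6964 genes with a mean level at or above the 75th percentile the median was 0.10, with 1.61% higher by 2-fold or more and 1.39% lower by as much. Of these 6964 genes, 4324 had a difference above 0.

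The 3 families differed in spread more than in direction. The UGT members had a median of 0.41 and an interquartile range of 0.28, all 10 measured members lay above 0, and 1 was at least 2-fold higher. The SULT members had a median of 0.80 and an interquartile range of 1.18, with 11 above 0, 2 below 0 and 4 at least 2-fold higher. The GST members had a median of 0.44 and an interquartile range of 0.44, with 15 above 0, 3 below 0 and none past 2-fold in either direction. With 1 pool a group the differences between families were not tested. The UGT and GST medians were close to the median of 9 measured hepatocyte markers, 0.37 (0.24 to 0.58), Alb (albumin) among them at 0.37. That closeness depended on the scaling: under quantile normalization the hepatocyte marker median was 0.01, against 0.19 for UGT and 0.17 for GST.

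How far a family stands above 0 rests on how the arrays are scaled. With the arrays scaled to the spike-in controls, the family medians were 0.03 for UGT, 0.43 for SULT and 0.06 for GST, while the median of all genes was -0.30. Relative to the median of all genes, the UGT median was 0.22 to 0.35 higher, the SULT median 0.63 to 0.93 higher and the GST median 0.20 to 0.43 higher over all settings tried. Most scalings shift every gene by about the same amount, and 16 of the 41 members, with differences between -0.18 and 0.33, had the other sign under at least 1 setting.

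**Figure D2:**
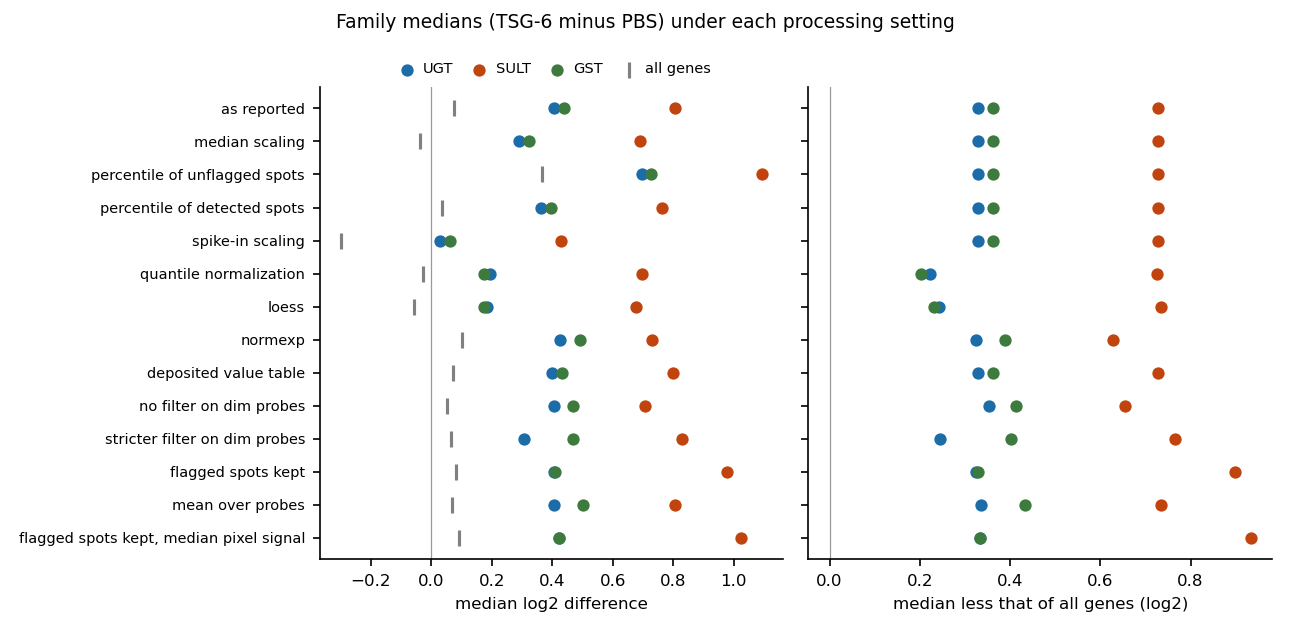
Median log2 difference (TSG-6 minus PBS) of the measured UGT, SULT and GST members under each processing setting, as it stands and less the median of all genes under the same setting (1 row a setting, colours for the families, grey ticks for all genes). The SULT median stays above the other families' under every setting, and the UGT and GST medians stay near each other.

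**Figure D3:**
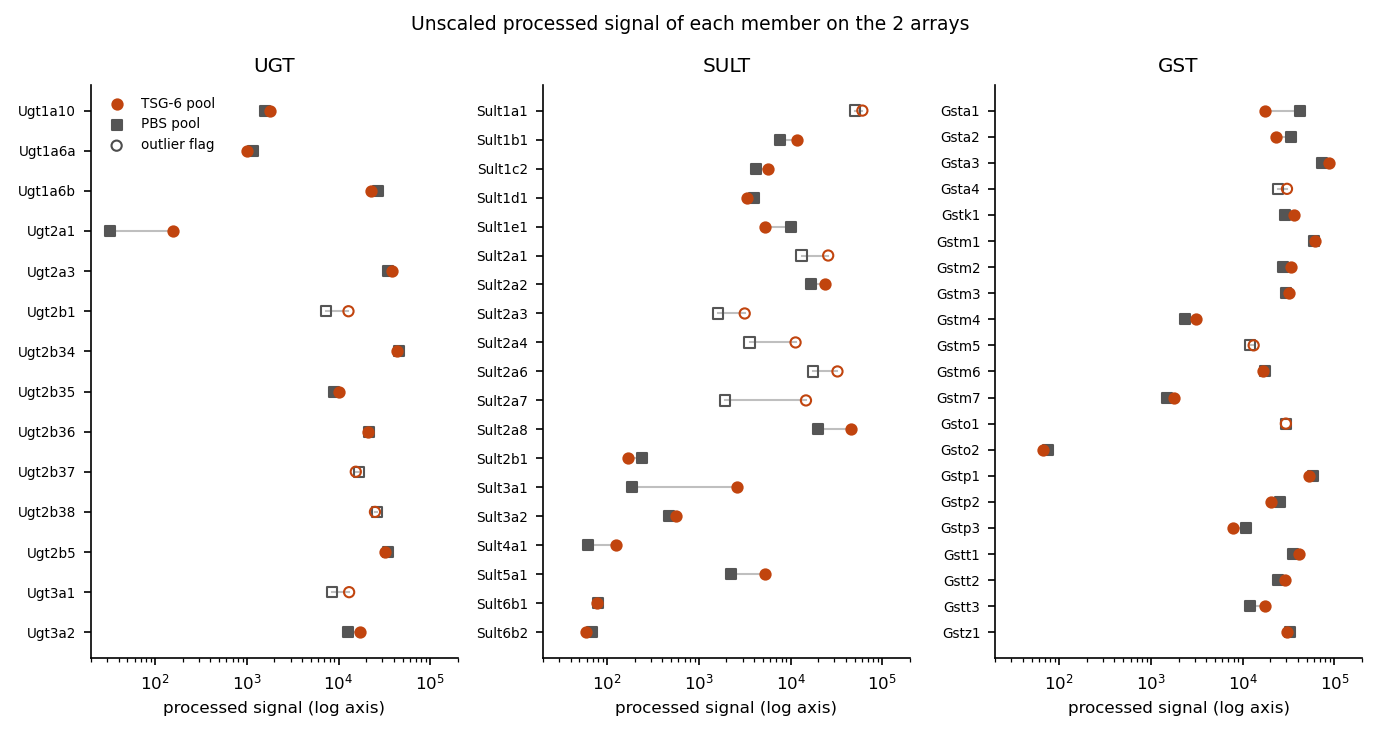
Processed signal (log axis) of each member on the TSG-6 array and the PBS array, by family, before any scaling between arrays; circles are the TSG-6 pool, squares the PBS pool, and open symbols members with only flagged spots. Sult3a1 stands out, with 2600.2 on the TSG-6 array and 188 on the PBS array, while Gsta1 is the GST member with the widest gap, 17330.3 on the TSG-6 array and 42174 on the PBS array.

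Among the sulfotransferases, Sult3a1, which conjugates aromatic amines and is known in mice as a female-predominant liver enzyme, showed the largest difference of any member. Its single probe read a signal of 2600.2 on the TSG-6 array and 188 on the PBS array, levels of 0.07 and -4.07. The difference was 4.14, or 17.7-fold higher in the TSG-6 pool, and 3 of the 15147 measured genes had a larger one. Sult3a2, which lies close by on chromosome 10, read 571 on the TSG-6 array and 477 on the PBS array, a difference of 0.61. Each gene of this pair has a single probe, and whether the pair differs by more than the spread between animals was not tested.

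Of the Sult2a genes, the hydroxysteroid and bile acid sulfotransferases that lie together on chromosome 7, only 2 had a probe without an outlier flag. Sult2a8, reported to sulfate bile acids in mouse liver, read 45829.5 on the TSG-6 array and 19922 on the PBS array, levels of 4.21 and 2.66 and a difference of 1.55 (2.93-fold higher, 1 probe). Sult2a2 read 23866 on the TSG-6 array and 16829.6 on the PBS array, a difference of 0.85 (1.81-fold higher). Both were higher in the TSG-6 pool. Sult2b1, a cholesterol and hydroxysteroid sulfotransferase outside this cluster, was dim on both arrays, with 169 in the TSG-6 pool and 238 in the PBS pool and a difference of -0.15.

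The other 5 Sult2a genes with a probe could be read only with the flag ignored. Of the 9 Sult2a probes, 6 carried the flag on the TSG-6 array alone, 1 on both arrays and 2 on neither. The flag marks spots with uneven pixels or far from their replicate spots, and it was set on 6.44% of spots on the TSG-6 array and 3.40% on the PBS array. With the flag ignored, Sult2a7 read 14717 on the TSG-6 array and 1912 on the PBS array, a difference of 3.30 (9.82-fold higher). Sult2a4 read 11333.5 on the TSG-6 array and 3572 on the PBS array, a difference of 2.02 (4.05-fold higher). Both exceeded Sult2a8. Sult2a1 differed by 1.32, Sult2a3 by 1.31 and Sult2a6 by 1.25, each 2.37-fold to 2.49-fold higher in the TSG-6 pool.

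The same 5 genes were past 2-fold when read from the median pixel of each spot, which a few bright pixels move less than the mean. By the median pixel the difference was 3.04 for Sult2a7, 1.90 for Sult2a4, 1.35 for Sult2a3, 1.27 for Sult2a6 and 1.11 for Sult2a1. The 3 probes of Sult2a6 gave 1.25, 1.69 and 3.09 with flags ignored, all in the same direction and unequal in size. All 7 Sult2a genes with a value lay between 0.85 and 3.30, with a median of 1.32 and 6 of 7 at least 2-fold higher, against 2.97% of the 16423 genes measured with flags ignored. Several of these genes are close copies by their promoters, the probe sequences were not used here, and whether signal from one gene reaches the probe of another was not tested, so the 7 values may not be 7 separate measurements.

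The promoters of Sult2a3, Sult2a4, Sult2a6 and Sult2a8 are shown because these clustered genes were higher together, and those of Sult3a1 and Sult3a2 because the differences of that nearby pair were not alike. Each is the 250 bases before the transcription start, 5′ to 3′ on the gene's strand, from RefSeq on build GRCm38.p6. Capitals mark matches, on either strand, to TTCNNNGAA (a STAT5 and BCL6 motif), to TGACNNNGC (the core of the antioxidant response element) or to AGGTCA (the nuclear receptor half-site); a sequence with no capitals held no match. The regions are chr7:14123049-14123298 for Sult2a3, chr7:13989589-13989838 for Sult2a4, chr7:14254871-14255120 for Sult2a6, chr7:14446588-14446837 for the upstream start of Sult2a8 and chr7:14438552-14438801 for its downstream start, all on the minus strand. They are chr10:33857472-33857721 on the plus strand for Sult3a1 and chr10:33782116-33782365 on the minus strand for Sult3a2.
Sult2a3: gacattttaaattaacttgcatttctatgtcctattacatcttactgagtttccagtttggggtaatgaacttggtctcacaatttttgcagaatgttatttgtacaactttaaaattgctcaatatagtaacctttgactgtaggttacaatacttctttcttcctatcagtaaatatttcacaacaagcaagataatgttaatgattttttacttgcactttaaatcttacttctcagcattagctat
Sult2a4: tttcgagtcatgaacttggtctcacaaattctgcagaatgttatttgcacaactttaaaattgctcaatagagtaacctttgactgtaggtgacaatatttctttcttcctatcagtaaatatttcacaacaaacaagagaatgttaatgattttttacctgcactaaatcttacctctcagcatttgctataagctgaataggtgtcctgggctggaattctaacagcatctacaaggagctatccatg
Sult2a6: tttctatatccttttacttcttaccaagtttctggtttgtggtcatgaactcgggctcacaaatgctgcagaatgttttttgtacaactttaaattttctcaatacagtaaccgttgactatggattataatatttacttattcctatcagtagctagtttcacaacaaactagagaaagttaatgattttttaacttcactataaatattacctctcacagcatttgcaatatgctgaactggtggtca
Sult2a8: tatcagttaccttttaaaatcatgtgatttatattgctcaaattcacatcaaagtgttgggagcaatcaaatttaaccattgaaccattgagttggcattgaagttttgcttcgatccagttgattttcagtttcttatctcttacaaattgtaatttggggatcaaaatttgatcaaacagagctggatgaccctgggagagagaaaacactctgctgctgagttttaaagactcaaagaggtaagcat
Sult2a8 downstream start: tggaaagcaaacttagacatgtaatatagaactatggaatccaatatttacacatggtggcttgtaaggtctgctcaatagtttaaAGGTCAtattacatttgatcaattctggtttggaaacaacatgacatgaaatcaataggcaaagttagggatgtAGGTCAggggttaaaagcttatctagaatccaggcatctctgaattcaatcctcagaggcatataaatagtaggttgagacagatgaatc
Sult3a1: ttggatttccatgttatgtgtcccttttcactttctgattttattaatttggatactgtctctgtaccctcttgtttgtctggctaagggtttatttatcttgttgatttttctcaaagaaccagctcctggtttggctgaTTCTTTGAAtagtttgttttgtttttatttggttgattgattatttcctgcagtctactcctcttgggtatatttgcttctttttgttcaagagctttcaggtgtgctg
Sult3a2: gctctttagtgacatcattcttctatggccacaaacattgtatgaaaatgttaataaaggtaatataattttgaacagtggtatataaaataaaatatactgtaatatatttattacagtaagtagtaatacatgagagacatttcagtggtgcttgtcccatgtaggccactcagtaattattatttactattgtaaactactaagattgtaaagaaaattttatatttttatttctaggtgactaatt

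The Sult2a3 and Sult2a4 promoters were identical at 92.7% of aligned bases, Sult2a3 and Sult2a6 at 82.1%, and Sult2a4 and Sult2a6 at 83.8%. The promoter of the upstream Sult2a8 start could not be aligned with these over at least 150 bases, nor could Sult3a1 with Sult3a2. The downstream start of Sult2a8 had 2 matches to AGGTCA, at 164 and 90 bases before it, and the upstream start had none. A promoter was in the table for 56 member genes. The Sult3a1 promoter held 1 match to TTCNNNGAA, TTCTTTGAA at 109 bases before the start, where 7.02% of 32851 promoters of the same length hold one, and the Sult3a2 promoter held none. Among members, the motif was found for 1 of 19 UGT, 1 of 17 SULT and 2 of 20 GST genes. The nuclear receptor half-site, held by 14.0% of all promoters, was found for 7 UGT, 3 SULT and 1 GST genes, and the antioxidant response element core, held by 10.2%, for 0 UGT, 0 SULT and 3 GST genes. Among the UGT genes, Ugt2b5, Ugt2b36, Ugt2b37 and Ugt2b38 held the half-site 22 to 39 bases before the start. Their promoters were identical to each other at 69.6% to 94.9% of aligned bases, so these may not be separate finds. The shares are of promoters, while the member counts are of genes, some with several promoters. A match to AGGTCA read from the other strand can lie inside a match to TGACNNNGC. These are letter matches in a short window and no measure of binding.

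**Figure D4:**
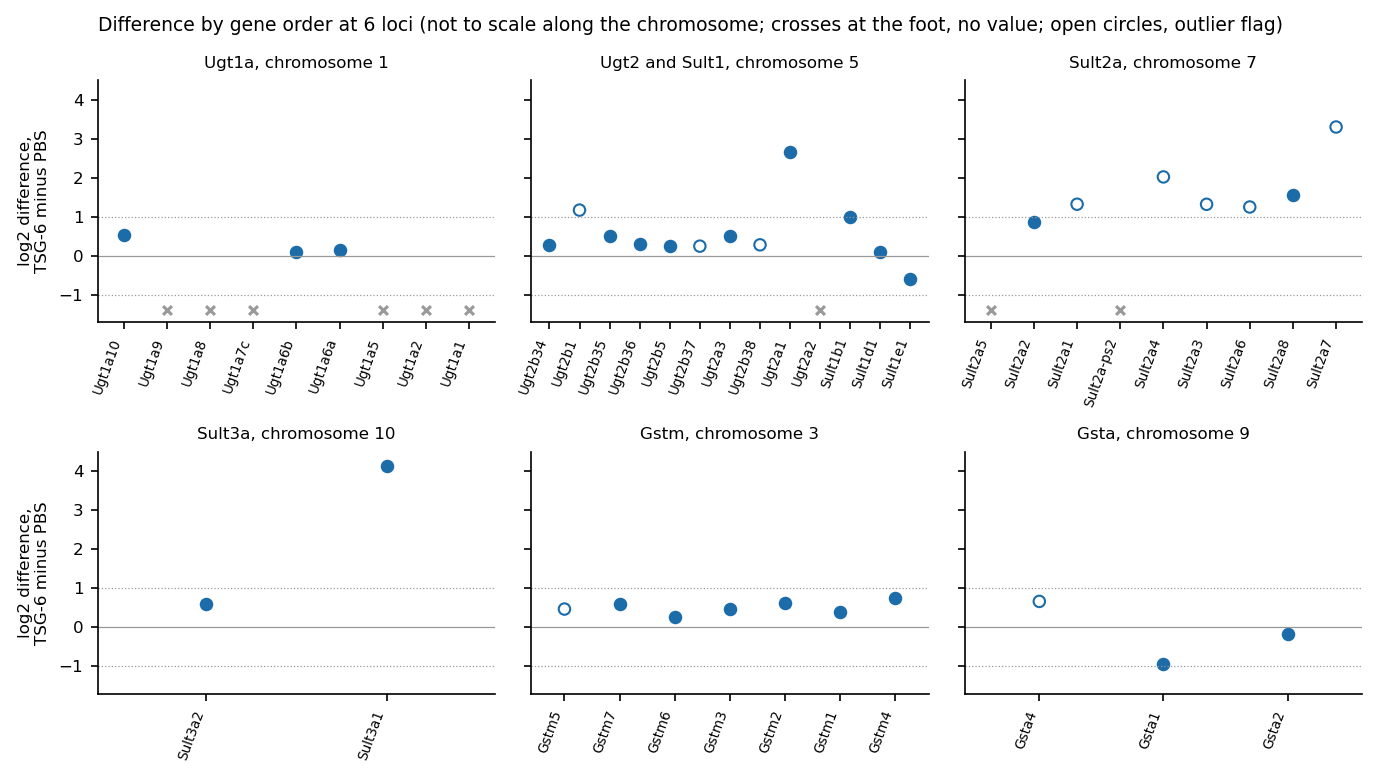
Log2 difference (TSG-6 minus PBS) of the members at 6 loci, in the order of the genes along the chromosome and not to scale. Filled circles are measured members, open circles are members with only flagged spots, and crosses at the foot are members with no value. The 7 Sult2a genes with a value all lie at 0.85 or above, the Gstm genes lie between 0.27 and 0.76, and the 2 Sult3a genes lie far apart.

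In the Sult1 group, which conjugates phenols, thyroid hormones, catecholamines and oestrogens, 4 members were measured, with differences from -0.60 to 0.98. Sult1b1, which acts on thyroid hormones, read 11708.5 on the TSG-6 array and 7578 on the PBS array, levels of 2.24 and 1.26, and its difference of 0.98 lay just under 2-fold. Sult1c2 differed by 0.80 and Sult1d1, a catecholamine sulfotransferase, by 0.09. Sult1e1, the oestrogen sulfotransferase, went the other way: 5201 on the TSG-6 array and 10085 on the PBS array, levels of 1.07 and 1.67, a difference of -0.60 (1.52-fold lower). It is the lowest of the SULT members and stayed below 0 under every setting, between -0.98 and -0.32. Sult1a1, the main phenol sulfotransferase of liver, had flags on both of its probes and read 60603.5 on the TSG-6 array and 50517 on the PBS array with the flag ignored, a difference of 0.61. The Sult1d1 value of 0.09 came from a probe with 3338 on the TSG-6 array and 4010 on the PBS array. A brighter Sult1d1 probe, flagged on the TSG-6 array, read 16912.5 there and 12102.5 on the PBS array and gave 0.83.

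The remaining sulfotransferases have no settled role in liver. Sult5a1 read 5302 on the TSG-6 array and 2233 on the PBS array, levels of 1.10 and -0.50, a difference of 1.60 (3.03-fold higher, 1 probe). Sult4a1, best known from brain, read 124 on the TSG-6 array and 62.4 on the PBS array, levels of -4.32 and -5.66, a difference of 1.35 (2.54-fold higher). Its other probe was not well above background, and its difference lay under 2-fold with normexp background correction (0.73) and with spike-in scaling (0.97). It was the smallest difference past 2-fold. Sult6b1 differed by 0.33 and Sult6b2 by 0.16, both dim, with 78.4 and 59.4 on the TSG-6 array and 79.3 and 67.6 on the PBS array.

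Among the glucuronosyltransferases, only Ugt2a1, an enzyme of the nasal epithelium that clears odorants, was past 2-fold without a flag. It read 158 on the TSG-6 array and 32.2 on the PBS array, levels of -3.97 and -6.62, a difference of 2.65 (6.26-fold higher, 1 probe), and 29 genes had a larger one. The PBS signal was near the lowest signal well above background on that array, 25.9. Its difference was 1.29 to 2.94 over the settings, and it left the measured set, as did Sult4a1, when dim probes were filtered more strictly.

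The 3 measured UGT genes of highest mean level differed by 0.25 to 0.50. Ugt2b34 read 42998 on the TSG-6 array and 45255.5 on the PBS array, levels of 4.12 and 3.84 and a difference of 0.28. Ugt2a3, a bile acid glucuronosyltransferase, read 38144 on the TSG-6 array and 34314 on the PBS array, levels of 3.95 and 3.44 and a difference of 0.50. Ugt2b5 read 32312 on the TSG-6 array and 34774 on the PBS array, levels of 3.71 and 3.46 and a difference of 0.25. Ugt2b36 differed by 0.31. Ugt2b35 differed by 0.51, while its second probe, with a flag on the PBS array, gave -0.29. The differences of Ugt2b34, Ugt2b36 and Ugt2b5 were below 0 under spike-in scaling (-0.10, -0.07 and -0.13).

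Of the 9 genes of the Ugt1a locus on chromosome 1, where each gene joins its own first exon to exons shared by all, 3 had a probe. Ugt1a6b, which conjugates planar phenols, read 22348 on the TSG-6 array and 26861 on the PBS array, levels of 3.17 and 3.09 and a difference of 0.09, the smallest of the UGT members. Its 2 probes gave 0.09 and 0.49. Ugt1a6a differed by 0.15 and Ugt1a10 by 0.54. A probe in the shared exons would read all of these genes, and Ugt1a1, the bilirubin enzyme, had no matched probe.

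Ugt3a2, whose human counterpart uses sugars other than glucuronic acid, differed by 0.79, with 17189.6 in the TSG-6 pool and 12665 in the PBS pool, and its 2 probes gave 0.79 and 0.92. A further 4 UGT genes had only flagged spots. With the flag ignored, Ugt2b1 read 12841 on the TSG-6 array and 7296 on the PBS array, a difference of 1.17 (2.24-fold higher), and 1.43 by the median pixel. Ugt3a1 differed by 0.98 and by 0.50 with the median pixel, the widest gap between the 2 readings among the 13 members with only flagged spots. Ugt2b37 differed by 0.24 and Ugt2b38 by 0.28.

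None of the 18 measured glutathione transferases was past 2-fold, where 2.94% of all genes were higher and 4.29% lower by as much. With 18 genes this count cannot be told from those shares. The lowest values lay in the alpha class. Gsta1, an alpha-class enzyme that responds to oxidative stress in mouse liver, read 17330.3 on the TSG-6 array and 42174 on the PBS array, levels of 2.81 and 3.74. Its difference of -0.93, or 1.91-fold lower with TSG-6, was just short of 2-fold, and 744 of 15147 genes were lower still. The Gsta1 difference ran from -1.31 to -0.64 over the settings. It was past 2-fold under median scaling, spike-in scaling, quantile normalization and loess. Gsta2, on the same stretch of chromosome 9, read 23203 on the TSG-6 array and 33429 on the PBS array, a difference of -0.18. Gsta3, the alpha-class enzyme that detoxifies aflatoxin in mice, went the other way, with 87229 on the TSG-6 array and 72559.6 on the PBS array, levels of 5.14 and 4.52 and a difference of 0.62. Its 2 probes gave 0.47 and 0.62. Gsta4, which clears 4-hydroxynonenal, had 10 spots of 1 probe, all flagged on both arrays, and with the flag ignored these differed by 0.42 to 1.09.

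The Gsta1 and Gsta2 promoters are shown because these closely related genes gave the 2 lowest values of the GST family. They are chr9:78230419-78230668 on the plus strand and chr9:78347146-78347395 on the minus strand, with matches to the same 3 motifs in capitals.
Gsta1: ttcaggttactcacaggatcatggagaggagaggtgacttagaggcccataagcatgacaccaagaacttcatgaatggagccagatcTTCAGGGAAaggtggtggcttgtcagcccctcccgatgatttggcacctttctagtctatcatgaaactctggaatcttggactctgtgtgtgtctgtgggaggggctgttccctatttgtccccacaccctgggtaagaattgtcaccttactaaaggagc
Gsta2: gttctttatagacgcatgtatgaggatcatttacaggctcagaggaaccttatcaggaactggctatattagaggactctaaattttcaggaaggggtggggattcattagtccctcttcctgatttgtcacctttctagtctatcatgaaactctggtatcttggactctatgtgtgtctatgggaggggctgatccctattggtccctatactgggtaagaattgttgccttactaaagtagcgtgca

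The pair was identical at 77.0% of 239 aligned bases. The Gsta1 promoter held TTCAGGGAA, a match to TTCNNNGAA, at 162 bases before the start, and none of the 3 motifs was found in the Gsta2 window.

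The mu-class genes, a cluster of 7 genes on chromosome 3, were all higher in the TSG-6 pool. With flags ignored all 7 lay between 0.27 and 0.77 with an SD of 0.16 between genes, read from 1 probe a gene. Their 15 probes gave 0.25 to 1.13 with flags ignored. Gstm1, the main mu-class enzyme of mouse liver, read 61961 on the TSG-6 array and 59521.5 on the PBS array, levels of 4.65 and 4.24 and a difference of 0.41, with 0.25 from its other probe. Gstm2 differed by 0.63, Gstm3 by 0.47, Gstm4 by 0.76, Gstm6 by 0.27 and Gstm7 by 0.59. A flagged probe of Gstm2 gave 1.13, and the other probes of Gstm6 gave 0.68 and, with a flag, 0.75. The Gstm4 value came from a probe with 3102 on the TSG-6 array and 2334 on the PBS array. A brighter Gstm4 probe, flagged on the TSG-6 array, read 24650 there and 23680.5 on the PBS array and gave 0.41. Gstm5, with flagged spots only, differed by 0.47. The 10 spots of a Gstm7 probe gave 0.42 to 0.84. These genes are close copies, and how far their probes share signal was not tested.

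Gstp1, the pi-class enzyme that is made at higher levels in male than in female mouse liver, read 52841.5 on the TSG-6 array and 58378 on the PBS array, levels of 4.42 and 4.21 and a difference of 0.21. Gstp2 differed by 0.03 and Gstp3 by -0.12. Flagged second probes of Gstp1 and Gstp2, each brighter than the probe used, gave 0.28 and 0.29. With flags ignored the median of the 3 pi-class genes was 0.28.

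In the theta class Gstt3 was the highest GST member, with 17543 on the TSG-6 array and 12039.6 on the PBS array, levels of 2.82 and 1.93 and a difference of 0.89 (1.86-fold higher). Gstt1 differed by 0.56 and Gstt2 by 0.59. Gstk1, the kappa-class enzyme of mitochondria and peroxisomes, differed by 0.68, and Gstz1, the maleylacetoacetate isomerase of tyrosine breakdown, by 0.25. Of the omega class, Gsto2 differed by 0.16 and was dim, with 66.4 on the TSG-6 array and 76.1 on the PBS array, and Gsto1, with flagged spots only, by 0.34.

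With flags ignored throughout, 54 members had a value, 14 UGT, 19 SULT and 21 GST. The medians were then 0.41 for UGT, 0.98 for SULT and 0.41 for GST, and 2 UGT, 9 SULT and 0 GST members were at least 2-fold higher, against 2.97% of all genes. None was at least 2-fold lower, against 4.09%, a share from which 0 of 54 members cannot be told. By the median pixel, the 13 members with only flagged spots had the same sign as by the processed signal in 13 of 13, and the readings differed by a median of 0.08. Both readings come from the same flagged spots, so they are not separate measurements. Sult3a1, Sult2a8, Sult5a1, Ugt2a1 and Sult4a1 carried no flag.

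**Figure D5:**
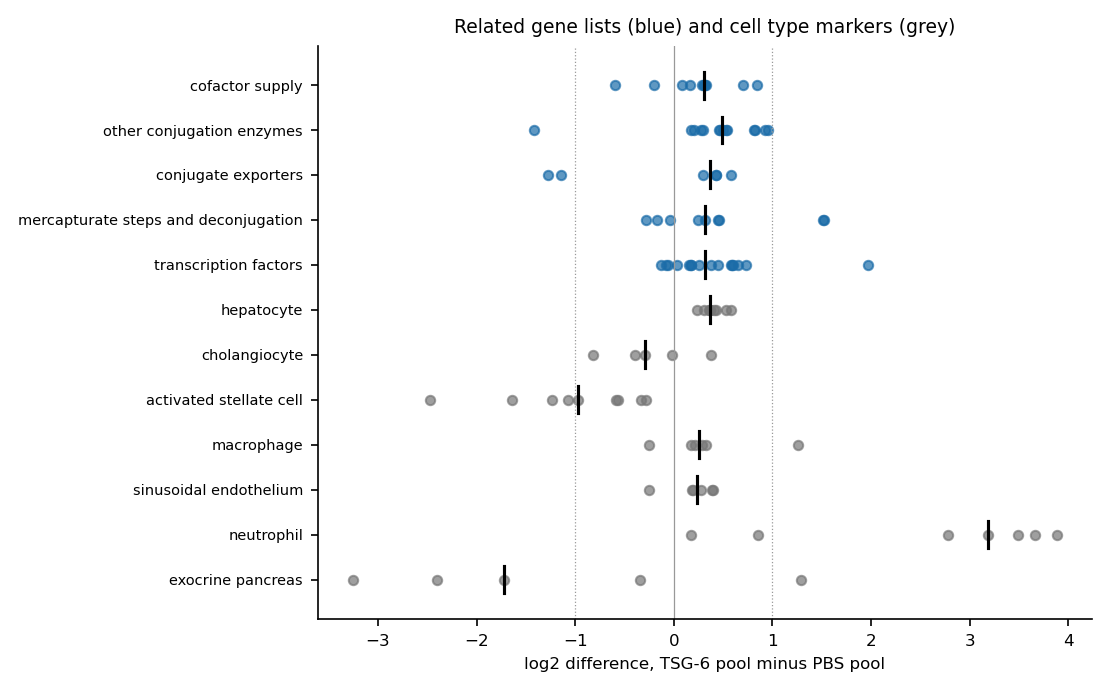
Log2 difference (TSG-6 minus PBS) of related gene lists (blue) and cell type markers (grey). Points are measured genes and bars are medians. The related lists have medians of 0.30 to 0.49, the activated stellate cell markers lie below 0 and the neutrophil markers above it, from 0.18 to 3.89.

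Of 14 cofactor genes, which supply the donors, 11 were measured, with a median of 0.30. The count past 2-fold was 0 in either direction, where 2.94% of all genes were higher and 4.29% lower by as much. With 11 genes this count cannot be told from those shares. Cth, which makes cysteine for glutathione, differed by 0.84, Papss2, which makes PAPS, by 0.71, its isoform Papss1 by -0.20 and Gss, glutathione synthetase, by -0.60. Ugdh, which makes UDP-glucuronic acid, differed by 0.30. Of 17 other conjugation enzymes, 14 were measured with a median of 0.49. None was higher by 2-fold, and 1 was lower by that much. That gene was Hpgds, the sigma-class GST that makes prostaglandin D2 in blood-derived cells, with 340 on the TSG-6 array and 1163 on the PBS array, a difference of -1.42 (2.68-fold lower). The largest in the other direction were Mgst2 at 0.95, Hnmt at 0.93 and Nnmt at 0.82.

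All 6 exporters of conjugates were measured, with a median of 0.36, and 2 were at least 2-fold lower, against 4.29% of all genes. Abcc4 read 2253 on the TSG-6 array and 6951 on the PBS array, a difference of -1.27 (2.42-fold lower). Abcc1 read 820.0 on the TSG-6 array and 2304 on the PBS array, a difference of -1.14 (2.20-fold lower). Both pump conjugates across the basolateral membrane, as does Abcc3, which differed by 0.43. Abcc6 differed by 0.58. Of 10 genes of mercapturate formation and deconjugation, 9 were measured, with a median of 0.31 and 2 at least 2-fold higher, against 2.94% of all genes. Nat8, which acetylates cysteine conjugates to mercapturates, read 14774 on the TSG-6 array and 6605 on the PBS array, a difference of 1.51 (2.85-fold higher). Ggt1, which trims glutathione conjugates, was dim, with 79.0 on the TSG-6 array and 35.1 on the PBS array, and differed by 1.52.

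Of 18 transcription factors known to act on conjugation genes, 16 were measured, with a median of 0.32, 1 at least 2-fold higher and 0 lower, against 2.94% and 4.29% of all genes. That was Cux2, a factor of female mouse liver, with 478 on the TSG-6 array and 156 on the PBS array, a difference of 1.97 (3.91-fold higher). Nr1i3, the nuclear receptor CAR, differed by 0.73 and Stat5b by 0.60. Nfe2l2, which acts through the antioxidant response element, had flagged spots and differed by 0.03 with the flag ignored.

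Markers of other liver cells differed between the pools as well. All 9 activated stellate cell markers had a negative difference, of which the median was -0.97. At least 2-fold lower were 4, Acta2 at -2.47 among them, against 4.29% of all genes. Of 7 measured neutrophil markers all were higher, with a median of 3.19. At least 2-fold higher were 5, against 2.94% of all genes: Mpo (3.89), Ngp (3.67), Ltf (3.49), Elane (3.19) and Camp (2.78). The other measured markers, S100a8 at 0.85 and S100a9 at 0.18, differed far less, so the median does not describe the whole list. The median was 0.25 for 6 macrophage markers, 0.23 for 6 sinusoidal endothelial markers and -0.29 for 5 cholangiocyte markers. Of the macrophage markers 1, Timd4 at 1.26, was at least 2-fold higher, against 2.94% of all genes. Of 5 measured exocrine pancreas markers, the median was -1.72, with 3 lower and 1 higher by more than 2-fold, against 4.29% and 2.94% of all genes. In whole liver, fewer cells of a type and less RNA per cell cannot be told apart, and the part that cell mixture has in the family medians was not tested.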

How the data were processed

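Total RNA of whole liver, mixed from 3 mice a group, was labelled with Cy3 from 0.2 ug and hybridised to 1 Agilent array a group, per the labels' protocols. The deposited scanner files give each spot's intensity as a processed signal, already background-subtracted and detrended, per the file headers. The scanner software was version 11.5.1.1 in the headers and 10.7 in the submitters' processing notes, and the array was designed on mouse build mm9, per the file headers. The deposited value table holds log2 values of the same arrays: 99.7% of probes equalled the log2 processed signal less 1 constant per array within 0.001, with a column median of -3.77 for TSG-6 and -3.90 for PBS. Both arrays were on the same slide, per the file headers.

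Probes were named by matching transcript accessions, without version, to RefSeq genes (assembly GRCm38.p6), and 26756 of 55681 non-control probes matched. Levels were log2 processed signal minus the 75th percentile of its array, taken over every non-control spot. Spots with a non-uniformity or population outlier flag were left out, a probe needed 50% of its spots well above background to count as detected, and replicate spots were averaged. Where a gene had several probes, those detected on more arrays were preferred, and among these the brightest by mean level. Among the 59305 non-control spots, 75.5% were well above background on the TSG-6 array and 74.0% on the PBS array, and no member spot was saturated. The number of arrays limits the precision.

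With 1 array a group no test was possible, and genes were counted by a size of 2-fold. The members, gene lists, markers and settings were chosen with earlier results of these data known. Members given in full are those past 2-fold, the 3 of highest mean level and the largest difference in each direction per family, and the 2 nearest to 2-fold on either side. Others are named with their difference, and up to 4 genes of each related list are named by size (Ugdh, Nfe2l2 and Alb were added after their values were seen). The 12 other settings tried were 6 scalings between arrays, normexp background correction with offset 50, the deposited table, 2 filters on dim probes, flagged spots kept, and the mean over probes. The files hold no mean spot signal, so normexp was run on the median spot signal. The median pixel reading with flags ignored was added after seeing that most Sult2a spots carried a flag. Calculations used Python 3.11.15, pandas 2.3.3, Biopython 1.88 and limma 3.58.1 in R 4.3.3, and the summaries were tested on simulated data.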

Additional observations from a re-analysis of the deposited data

How the results depend on the processing

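Of 528 values of single members under alternatives 375 moved by less than the spot SD of 0.13 and 153 by more. Taking the 75th percentile over spots without a flag gave medians of 0.70 for UGT, 1.09 for SULT and 0.73 for GST, with 2 UGT, 7 SULT and 2 GST members at least 2-fold higher, while the share of all genes that high was 6.71%, against 2.94% in the report. Spike-in scaling gave medians of 0.031 for UGT, 0.43 for SULT and 0.063 for GST. Quantile normalization gave 0.19 for UGT and 0.17 for GST, and loess gave 0.18 for UGT, 0.68 for SULT and 0.17 for GST. Under median scaling, spike-in scaling, quantile normalization and loess, 1 GST member, Gsta1, was at least 2-fold lower, while 757 to 1416 of 15147 genes were that low, against 650 in the report. The stricter filter left 0 UGT members at least 2-fold higher. With flagged spots kept, 2 UGT and 9 SULT members were at least 2-fold higher and the SULT median was 0.98. With flagged spots kept and the median pixel read, the counts were 2 UGT and 10 SULT members, beside 4.01% of all genes, and the SULT median was 1.02.

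Among all genes, the share of higher genes among those past 2-fold was 40.6%, against 73.0% with the percentile of spots without a flag, 11.7% with spike-in scaling, 29.4% with median scaling and 28.7% with loess. The cause of these shifts was not tested. No paired analysis was possible because each group is 1 array. Under normexp the differences of 2 dim members were 1.29 for Ugt2a1 and 0.73 for Sult4a1.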
